A study of Rattus norvegicus with 10 samples.

Results

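The 37 genes described here form a list for mitochondrial fatty acid oxidation and ketone body formation, 7 of them linked genes outside its steps. Cpt1b and Ucp3 are muscle forms, and Oxct1 serves organs that burn ketone bodies. The members of the list were chosen by name, and each was read from its probe set of highest mean over the 10 arrays. All 37 were measured, among 14217 genes with a probe set of their own. The liver RNA came from Harlan Sprague Dawley rats, with 1 array per animal. The 5 HMB rats were fed HMB (2-hydroxy-4-methoxybenzophenone, or oxybenzone, an ultraviolet filter of sunscreens) at 10000 ppm in the diet for 13 weeks, and the 5 control rats received the diet at 0 ppm. HMB 1 carried a dose label of 0 ppm against a title and chemical label of HMB, and was kept in the HMB group. Both groups ate the same base diet, NTP-2000. Sex and age were not given in the labels used here. Rats were housed 5 per cage, so cage and HMB cannot be told apart if each group was 1 cage.

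Long-chain fatty acids enter hepatocytes, are bound in the cytosol and are activated to acyl-CoA by acyl-CoA synthetases. The carnitine shuttle carries the acyl group into the mitochondrion, where each turn of the beta-oxidation spiral removes an acetyl-CoA unit through dehydrogenation, hydration, a further dehydrogenation and thiolysis. Double bonds of unsaturated fatty acids need auxiliary enzymes, among them an enoyl-CoA isomerase and a dienoyl-CoA reductase. Electrons leave the first dehydrogenation through the electron transfer flavoprotein, and surplus acetyl-CoA becomes ketone bodies for other organs. Many of these genes are targets of PPAR-alpha, a nuclear receptor that binds as a dimer with RXR to a direct repeat of AGGTCA half-sites with 1 base between them, called DR1.

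RefSeq promoter sequences on assembly GRCr8, from 250 bases before to 50 after the gene start, were matched by symbol for 32 of the 37 members. Decr1, Acaa2, Acadl, Cpt1b and Vnn1 had no window and were not searched. Both strands were searched for DR1, written AGGTCANAGGTCA, with up to 2 mismatches in its 12 fixed letters. A match was present in 7 of the 32 windows (21.88%), against 3.71% of all 27457 windows and 2.90% of the 11733 windows of genes measured on the arrays. An exact match was present in 0 of the 32 and in 16 of all windows. The 7 matches follow, turned to the strand that reads as DR1, to show how the repeat is written beside each member. Capitals mark the letters that equal the motif, and lower case marks the spacer and mismatches.

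Acadvl: AGGTCAgtGGTCA

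Fabp1: AGGcCAtAGGTCA

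Slc27a2: AtcTCAaAGGTCA

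Etfa: AGGgCAaAGGTaA

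Echs1: AGaTCAgAGGTCt

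Crat: AGGaCAccGGTCA

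Ucp3: AGGTttcAGGTCA

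Acadvl and Fabp1 had 1 mismatch and the other 5 had 2. The upstream part of 3 windows is printed whole, for those closest matches and for Eci1, the member with the largest difference between the groups. Capitals mark the DR1 match, which in Fabp1 reads on the opposite strand. The window of Eci1 held no match with up to 2 mismatches.

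Acadvl, chr10:55236706-55236955, minus strand: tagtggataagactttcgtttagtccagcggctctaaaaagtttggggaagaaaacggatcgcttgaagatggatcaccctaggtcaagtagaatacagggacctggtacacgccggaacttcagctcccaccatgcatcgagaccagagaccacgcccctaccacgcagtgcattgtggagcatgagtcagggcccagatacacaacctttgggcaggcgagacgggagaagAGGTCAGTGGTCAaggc

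Fabp1, chr4:104749090-104749339, plus strand: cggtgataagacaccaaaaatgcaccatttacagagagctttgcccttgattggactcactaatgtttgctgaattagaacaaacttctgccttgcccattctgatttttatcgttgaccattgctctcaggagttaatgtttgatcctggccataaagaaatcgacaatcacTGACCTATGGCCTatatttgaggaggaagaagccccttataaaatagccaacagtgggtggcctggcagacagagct

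Eci1, chr10:13961000-13961249, plus strand: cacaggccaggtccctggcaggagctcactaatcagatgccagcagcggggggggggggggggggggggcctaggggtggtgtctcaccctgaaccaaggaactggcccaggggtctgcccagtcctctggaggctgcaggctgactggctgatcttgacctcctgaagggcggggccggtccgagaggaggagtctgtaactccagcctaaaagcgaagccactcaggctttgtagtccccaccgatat

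The log2 differences (HMB minus control) of the 7 members with a match ran from -0.03 in Fabp1 to 0.20 in Ucp3, with a median of 0.10. Those of the other 25 with a window ran from -0.38 to 0.70, with a median of 0.05. The members without a window are in neither set: Vnn1 at 0.59, Decr1 at 0.37, Acaa2 at 0.33, Acadl at 0.19 and Cpt1b at -0.11. A match is a description of these letters and was not tested against the differences.

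In the HMB rats, Eci1 and Decr1, 2 of the auxiliary enzymes for double bonds, rose, and the other 35 members did not pass the test. None passed downward. The test was limma with Benjamini-Hochberg adjustment over all 14217 genes at an adjusted p of 0.05, by which 1.72% of all genes were called, 0.76% higher in HMB and 0.957% lower. The share of members called, 2 of 37, lay above that background. It rests on 2 genes, and the members were chosen with earlier results of these data known, so it is no test of the list. Of the members, 25 lay above 0 and 12 below, with a median log2 difference of 0.07, where 46.5% of all genes lay above 0 and their median was -0.02. Of the 37, 30 were among the 3554 genes with the highest mean signal, of which 7 were called higher, Eci1 and Decr1 included, and whose median was -0.07. An unadjusted p under 0.05 was found for 9 members, all 9 with the higher mean in HMB. Over all genes such a p was found for 24.9%, and for 11.5% in that direction. In 3 members, Eci1, Decr1 and Acadl, the 5 HMB values lay above the 5 control values, as in 2.64% of all genes, and in 0 members they lay below, against 3.48%. Groups without overlap in either direction were found in 6.12% of all genes. Another 15 probe sets of 13 members were on the arrays, and 10 of them had the sign of the probe set used. By limma 0 of the 15 were called, 2 had an unadjusted p under 0.05, and 1.7% of all 31042 probe sets were called. In whole liver, more or fewer cells of a type and more or less RNA per cell cannot be told apart.

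**Figure D1:**
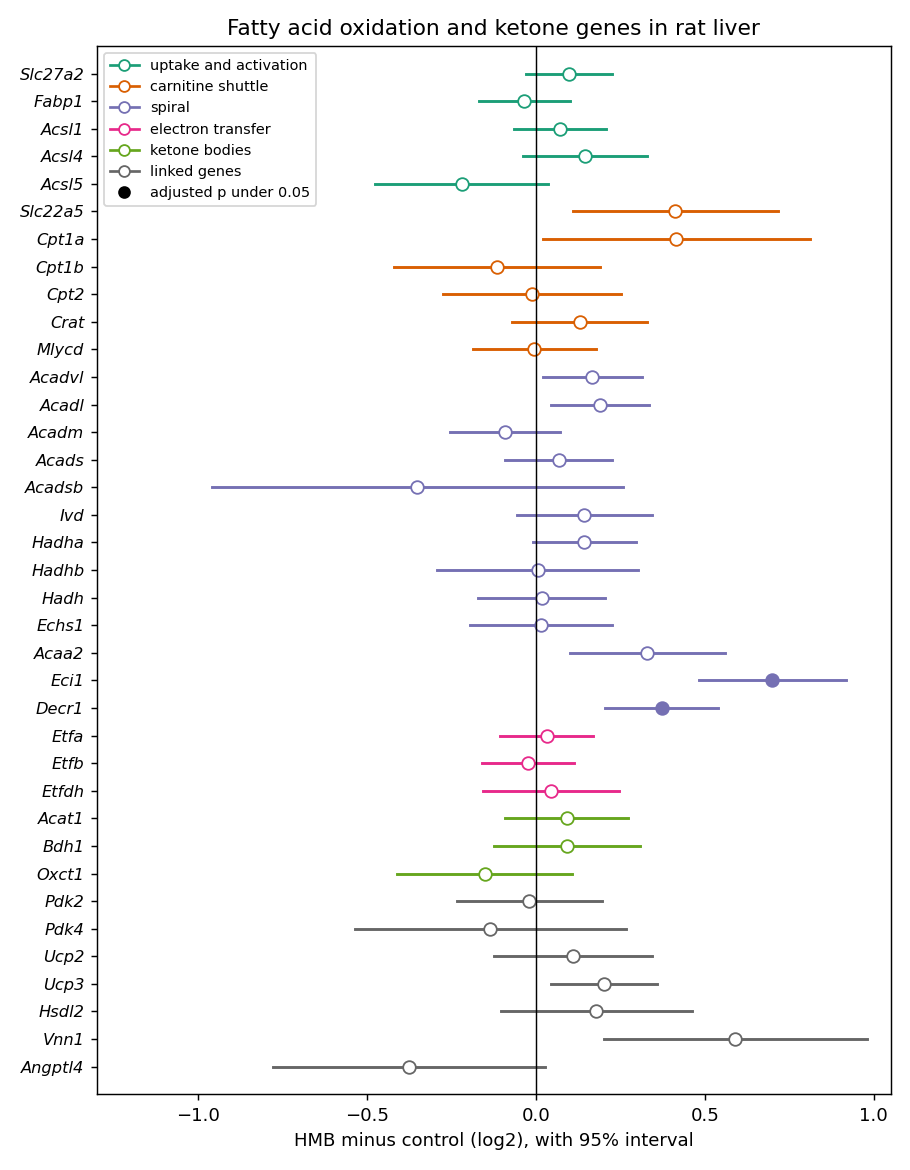
Log2 difference between 5 HMB and 5 control rats for each of the 37 genes, with its 95% interval from limma, coloured by step. Filled circles, Eci1 and Decr1, passed an adjusted p of 0.05, and intervals of the electron transfer genes all include 0.

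Eci1 encodes the mitochondrial enoyl-CoA isomerase that moves a double bond into the position the spiral can hydrate. Its log2 signal was 10.86, 11.02, 10.84, 10.84 and 10.47 in controls 1 to 5 and 11.47, 11.51, 11.60, 11.36 and 11.59 in HMB 1 to 5. All HMB animals lay above all controls, and HMB 3 was the highest. The log2 difference was 0.70 ± 0.10 (SE, n = 5 each, limma adjusted p = 0.0294), or 62.5% more signal (95% interval of the fold 1.40 to 1.89). A second Eci1 probe set was dim, at 2.88 to 3.67 over the 10 arrays, and had a log2 difference of 0.29 ± 0.13 (SE, limma adjusted p = 0.198 over probe sets).

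Decr1 encodes the mitochondrial dienoyl-CoA reductase, which removes the paired double bonds that arise from polyunsaturated fatty acids. Its log2 signal was 11.54, 11.62, 11.56, 11.36 and 11.51 in controls 1 to 5 and 11.75, 12.04, 11.95, 11.84 and 11.87 in HMB 1 to 5. The groups did not overlap, and HMB 1 was the closest to the controls. The difference was 0.37 ± 0.08 (SE, n = 5 each, limma adjusted p = 0.0414), or 29.4% more signal.

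Neither call held in every fit with fewer animals. With 1 animal left out at a time, the log2 difference of Eci1 stayed between 0.62 and 0.75 and that of Decr1 between 0.33 and 0.41. Eci1 passed in 4 of these 10 fits, those without control 1, control 4, HMB 1 or HMB 3, with adjusted p up to 0.0723 in the others. Decr1 passed in 2, those without control 1 or HMB 1, with adjusted p up to 0.093 in the others. Over all 14217 genes, 1014 were called without control 1, 353 without HMB 1, 157 without HMB 3 and 15 without control 4. The remaining fits called 0 or 1 of all genes, beside 244 with all animals. When HMB 1 was moved to the controls, following its dose label, Eci1 was at 0.60 ± 0.15 (SE, limma adjusted p = 0.068) and Decr1 at 0.37 ± 0.08 (limma adjusted p = 0.059). That fit called 30 of all genes.

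**Figure D2:**
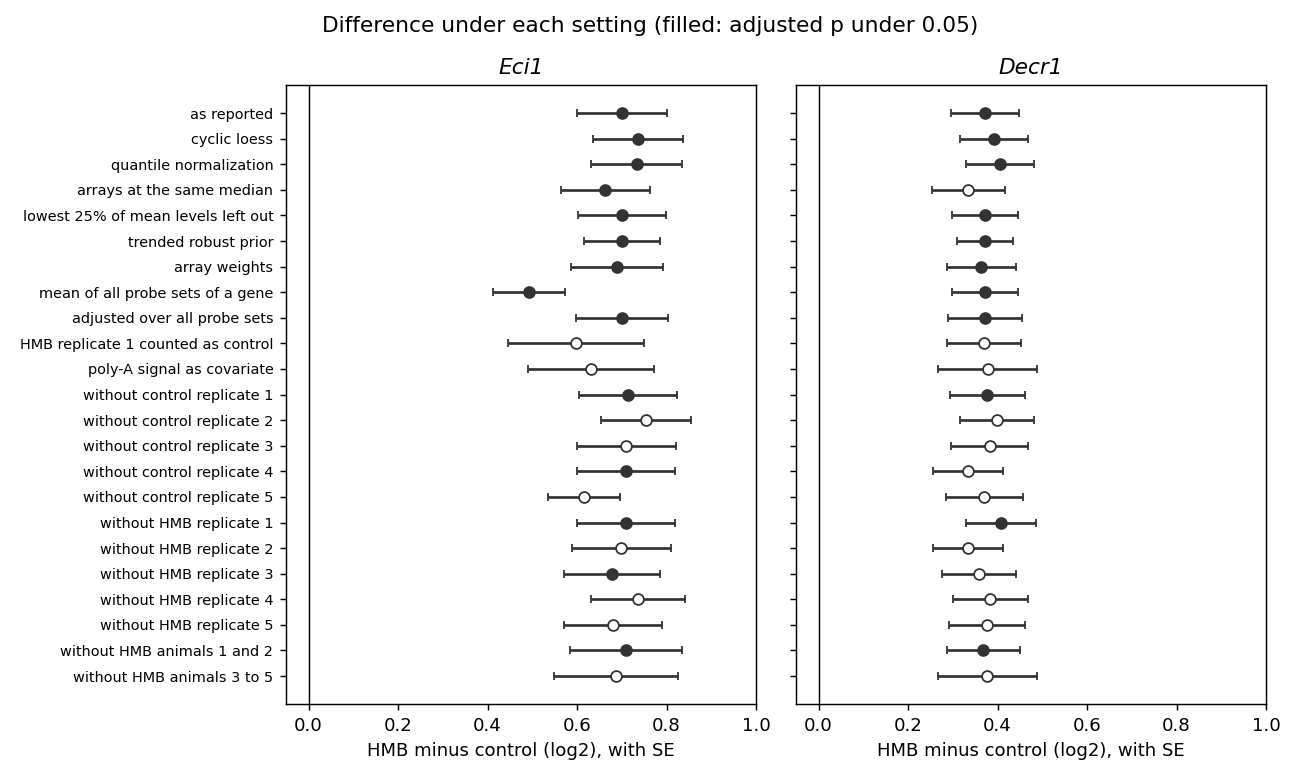
Log2 difference with SE for Eci1 and Decr1 as reported and under 22 other settings, one per line, with filled circles where the limma adjusted p was under 0.05. Eci1 stayed between 0.49 and 0.75 and Decr1 between 0.33 and 0.41.

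Among the other 11 spiral enzymes, Acaa2, the mitochondrial thiolase that cleaves off acetyl-CoA, had the smallest p. Its log2 signal was 11.87, 12.00, 12.03, 11.78 and 12.22 in controls 1 to 5 and 12.00, 12.46, 12.31, 12.36 and 12.41 in HMB 1 to 5. HMB 2 to 5 lay above all controls, while HMB 1 lay among them. The difference of 0.33 ± 0.10 (SE, n = 5 each, limma adjusted p = 0.0962) did not pass, and without HMB 1 it was 0.41 (limma adjusted p = 0.0494). The dimmer second probe set of Acaa2 was at 0.21 ± 0.10.

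Acadl and Acadvl, the dehydrogenases of long and very long acyl chains, had differences of 0.19 ± 0.07 (SE, limma adjusted p = 0.118) and 0.17 ± 0.07 (limma adjusted p = 0.154). Acadl was at 11.47 to 11.54 in controls and 11.59 to 11.85 in HMB, so the groups were apart by a narrow gap. Acadm, the medium-chain dehydrogenase, was at -0.09, with a 95% interval from -0.25 to 0.07, and Acads, the short-chain one, at 0.07 (-0.09 to 0.22). Neither interval reached the estimate of Eci1.

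Hadha and Hadhb encode the alpha and beta subunits of the trifunctional protein, which carries out the later steps on long chains. Their RefSeq starts lie 301 bases apart on opposite strands, so the promoter windows of this pair share 200 bases, printed here on the plus strand because both genes are read away from them.

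Hadha and Hadhb, chr6:31907551-31907750, plus strand: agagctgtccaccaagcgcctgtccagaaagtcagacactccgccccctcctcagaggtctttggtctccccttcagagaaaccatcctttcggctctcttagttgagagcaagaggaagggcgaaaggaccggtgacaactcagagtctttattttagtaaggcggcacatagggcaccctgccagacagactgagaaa

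The signals of the pair did not follow each other across the HMB rats. Hadha was at 9.96, 10.10, 10.09, 9.93 and 10.02 in HMB 1 to 5, with control values from 9.82 to 10.03. Hadhb was at 10.53, 10.54, 9.86, 10.02 and 10.28 in HMB 1 to 5, with control values from 10.16 to 10.51. HMB 3 was thus the lowest HMB animal for Hadhb and nearly level with HMB 2, the highest, for Hadha. The differences were 0.14 ± 0.07 (SE, 95% interval -0.01 to 0.30) for Hadha and 0.00 ± 0.14 (-0.29 to 0.30) for Hadhb.

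Hadh, the 3-hydroxyacyl-CoA dehydrogenase of shorter chains, and Echs1, the short-chain enoyl-CoA hydratase, were each at 0.02, with 95% intervals of -0.17 to 0.21 and -0.19 to 0.22. Acadsb and Ivd are the dehydrogenases of branched acyl-CoAs from isoleucine and leucine. Acadsb was at 5.92, 6.21, 5.99, 5.68 and 5.74 in controls 1 to 5 and 6.22, 6.02, 4.38, 5.47 and 5.71 in HMB 1 to 5, so that HMB 3 stood more than a log2 unit below every other animal. The HMB group's SD for Acadsb, 0.72, was the largest of the 37 genes, and the difference of -0.35 ± 0.28 (SE, limma adjusted p = 0.444) was -0.06 without HMB 3. Ivd was at 9.39 in HMB 3 and at 9.73 to 9.88 in the other HMB rats, with controls from 9.45 to 9.63 (difference 0.14 ± 0.09, limma adjusted p = 0.344).

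HMB 3 was the lowest HMB animal for 14 of the 37 genes, 6 of them among the 13 spiral enzymes. It was also the highest HMB animal for 8 of the 37, and its median relative to the control means was 0.04 over all 37. HMB 1 was the lowest for 10. Relative to the control means, the median of the 11 spiral enzymes other than Eci1 and Decr1 was 0.19, 0.12, -0.18, 0.05 and 0.09 in HMB 1 to 5, while Eci1 was 0.67, 0.71, 0.79, 0.55 and 0.78 above its own control mean. The animal with the lowest median, HMB 3, was thus the one with the highest Eci1, though HMB 5 was nearly level with it. HMB 4, with the next lowest median, had the lowest Eci1 of the HMB rats. In HMB 1 and 2, 10 and 11 of these 11 enzymes exceeded their control mean, in HMB 3 it was 5, and in HMB 4 and 5 it was 8 each. Among controls, control 2 was the highest animal for 17 of the 37 genes and control 5 the lowest for 13. The median SD over the 37 genes was 0.13 in controls and 0.15 in HMB, beside 0.15 and 0.16 over all genes.

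**Figure D3:**
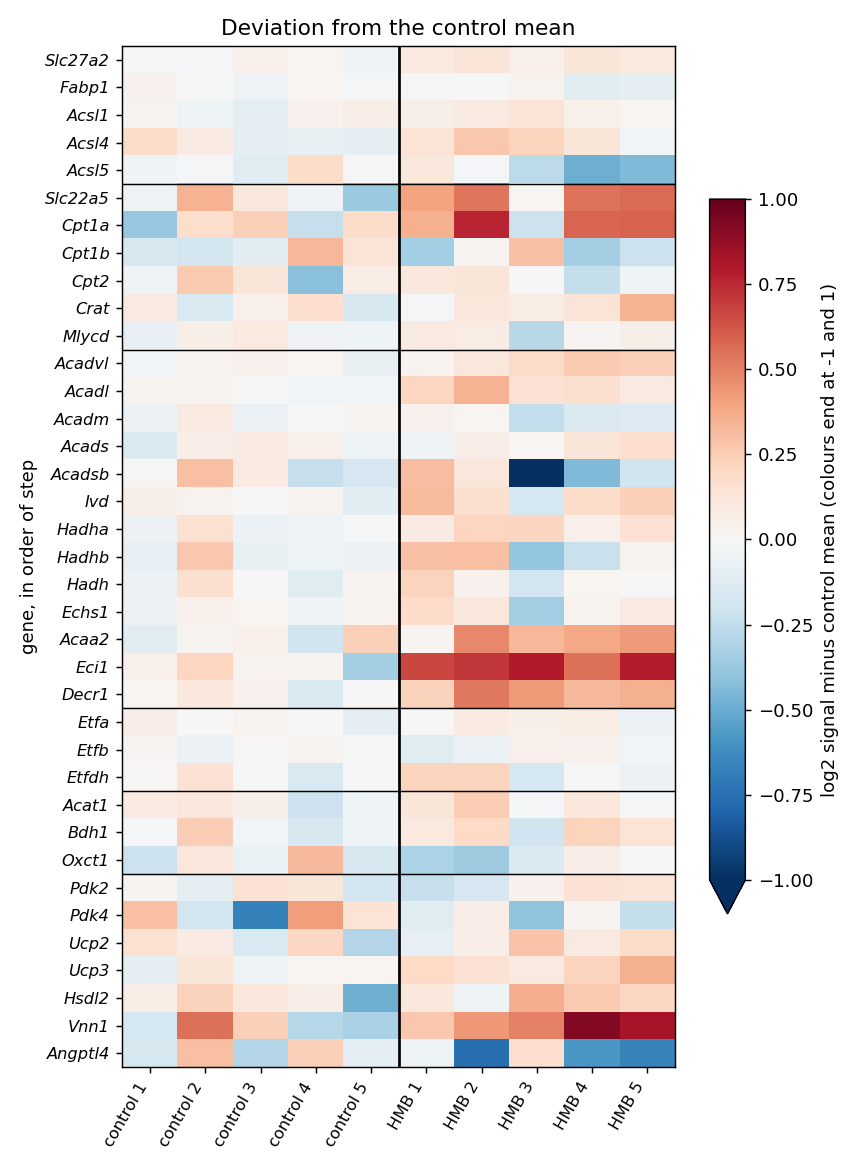
Log2 signal of each gene in each animal minus that gene's control mean, with genes in order of step and a vertical line between 5 controls and 5 HMB rats. Eci1 is red in all 5 HMB columns, while the HMB 3 column is blue for Acadsb, Hadhb and Echs1.

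In the carnitine shuttle, 0 of 6 members were called. Slc22a5, the carnitine transporter of the plasma membrane, was at 6.76, 7.16, 6.93, 6.78 and 6.44 in controls 1 to 5 and 7.22, 7.35, 6.83, 7.36 and 7.38 in HMB 1 to 5. HMB 3 lay among the controls and the other 4 HMB rats lay above them. The difference was 0.41 ± 0.14 (SE, n = 5 each, limma adjusted p = 0.109). Cpt1a, the liver enzyme that forms acylcarnitine and controls entry into the mitochondrion, had the same arrangement, with 10.73, 11.14, 10.16, 10.96 and 10.97 in HMB 1 to 5 against 10.001, 10.56, 10.62, 10.15 and 10.56 in controls 1 to 5. Its difference of 0.42 ± 0.18 (limma adjusted p = 0.182) was 0.57 without HMB 3. A dimmer Cpt1a probe set also had HMB 3 as its lowest animal, at 5.51, and a difference of 0.23 ± 0.28.

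The other shuttle genes gave smaller differences. Cpt2, which releases the acyl group inside the mitochondrion, was at -0.01, with a 95% interval of -0.28 to 0.25, and Mlycd, which degrades the Cpt1 inhibitor malonyl-CoA, was at 0.00 (-0.19 to 0.18). Crat, a carnitine acetyltransferase, was at 0.13 ± 0.09. Cpt1b, the muscle form of the first carnitine enzyme, was near the median signal of the arrays (4.33 to 4.41), at 4.45 to 4.97 in controls and 4.30 to 4.93 in HMB.

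**Figure D4:**
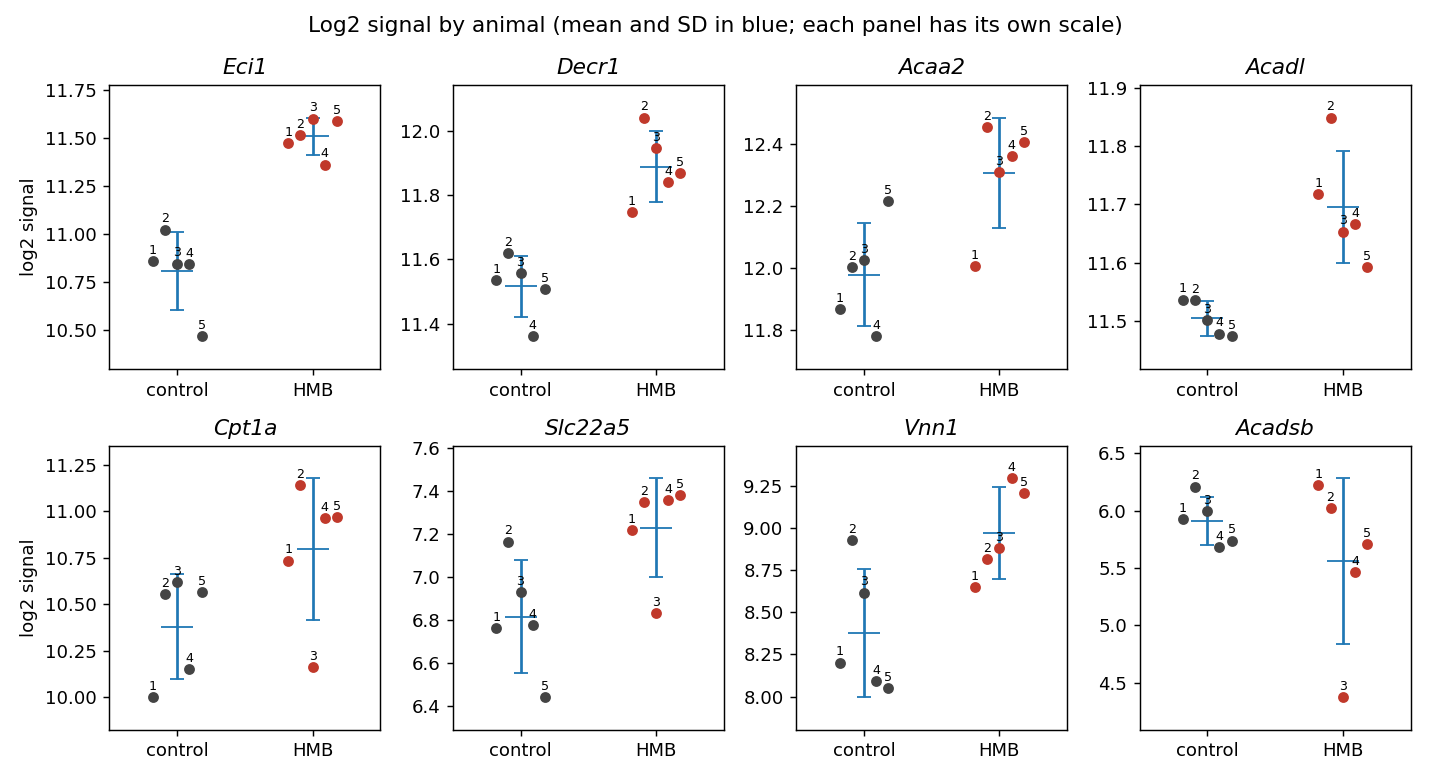
Log2 signal in each of 10 rats for 8 genes, with animal numbers beside the points and the mean and SD of each group in blue. HMB and control points are separate for Eci1, Decr1 and Acadl, and HMB 3 lies below the other HMB rats for Cpt1a, Slc22a5 and Acadsb.

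For uptake and activation, 0 of 5 members were called. Acsl5, an acyl-CoA synthetase, had the largest difference, with 10.95, 10.97, 10.86, 11.17 and 10.98 in controls 1 to 5 and 11.10, 10.96, 10.72, 10.49 and 10.54 in HMB 1 to 5. HMB 3 to 5 lay below all controls and HMB 1 and 2 did not. The difference was -0.22 ± 0.12 (SE, n = 5 each, limma adjusted p = 0.263). Acsl1, the main long-chain synthetase of liver, was at 0.07 (95% interval -0.07 to 0.21), and Acsl4, which prefers arachidonic acid, at 0.15 (-0.04 to 0.33). Slc27a2, a very-long-chain acyl-CoA synthetase and transporter, was at 0.10 ± 0.06, with HMB 3 inside the control range and 4 HMB rats above it. Fabp1, the liver fatty acid binding protein, was at -0.03 (-0.17 to 0.10).

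The 3 electron transfer genes had the narrowest range of differences of the 5 steps. Etfa and Etfb, the flavoprotein's subunits, were at 0.03 (95% interval -0.11 to 0.17) and -0.02 (-0.16 to 0.11). Etfa was at 11.31, 11.25, 11.28, 11.24 and 11.15 in controls 1 to 5 and 11.25, 11.33, 11.31, 11.31 and 11.18 in HMB 1 to 5. Etfdh, the membrane dehydrogenase that passes the electrons to ubiquinone, was at 9.64, 9.77, 9.63, 9.48 and 9.63 in controls and 9.86, 9.85, 9.46, 9.64 and 9.57 in HMB, a difference of 0.05 (-0.16 to 0.25). The groups overlapped in all 3 genes.

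For ketone bodies, 0 of 3 members were called. Acat1, the thiolase that joins acetyl-CoA units, and Bdh1, which reduces acetoacetate to 3-hydroxybutyrate, were both at 0.09, with 95% intervals of -0.09 to 0.27 and -0.13 to 0.31. A dimmer second Acat1 probe set was at 0.24 ± 0.11 (SE, limma adjusted p = 0.21 over probe sets), with HMB 1 the lowest of all 10 arrays on it and HMB 2 to 5 above all controls. Oxct1, which activates ketone bodies in organs that burn them and is low in hepatocytes, was at 4.40, 4.73, 4.55, 4.94 and 4.45 in controls 1 to 5 and 4.30, 4.26, 4.47, 4.68 and 4.62 in HMB 1 to 5. The groups overlapped, with a difference of -0.15 ± 0.12 (limma adjusted p = 0.439).

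Of the 7 linked genes outside these steps, 0 were called. Vnn1, a pantetheinase that recycles the vitamin part of coenzyme A, was at 8.20, 8.93, 8.62, 8.09 and 8.05 in controls 1 to 5 and 8.65, 8.81, 8.88, 9.29 and 9.20 in HMB 1 to 5. HMB 4 and 5 lay above all controls, and control 2 exceeded HMB 1, 2 and 3. The difference of 0.59 ± 0.18 (SE, n = 5 each, limma adjusted p = 0.0882) was the second largest of the 37. Angptl4, a secreted inhibitor of lipoprotein lipase and a known PPAR target, went the other way without passing, at 10.89, 10.19, 11.11, 10.36 and 10.27 in HMB 1 to 5 against 10.65 to 11.24 in controls (-0.38 ± 0.18, limma adjusted p = 0.227). HMB 2, 4 and 5 lay below all controls.

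Pdk4 and Pdk2 are kinases that shut down pyruvate dehydrogenase when fat is burned. Pdk4 varied most among controls of the 37 genes, from 9.18 in control 3 to 10.28 in control 4, and all HMB values, from 9.45 to 9.92, lay within that range (difference -0.13, 95% interval -0.54 to 0.27). Pdk2 was at -0.02 (-0.23 to 0.20). Hsdl2, a short-chain dehydrogenase of the same name family as hydroxysteroid dehydrogenases, was at 0.18 ± 0.13, and Ucp2, an uncoupling protein, at 0.11 ± 0.11. Ucp3, the uncoupling protein of muscle, was dim, at 3.74 to 3.95 in controls and 3.92 to 4.19 in HMB (0.20 ± 0.07, limma adjusted p = 0.127), and its other probe set was at 0.30. The mean of the 5 skeletal muscle markers was also dim, at 2.45 to 2.65 in controls and 2.68 to 2.79 in HMB, and 0 of the 5 were called. The median log2 difference was 0.11 over the 3555 genes with the lowest mean signal and 0.03 over the next 3554, which held Ucp3. Their part in the Ucp3 values was not tested.

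Beyond the 37, 56 other genes of a list for the pathway were measured. In these, 0 rose and 1 fell, with a median of 0.02, and 55 did not pass. Over all genes, 0.76% were called higher and 0.957% lower. The gene that fell was Prkaa2, the alpha2 catalytic subunit of AMP-activated protein kinase, which promotes fatty acid oxidation by phosphorylating acetyl-CoA carboxylase. Prkaa2 was at 9.24, 9.41, 9.48, 9.26 and 9.63 in controls 1 to 5 and 9.13, 8.81, 8.62, 8.79 and 8.64 in HMB 1 to 5. All HMB values lay below all controls, with HMB 1 nearest to them, and the gene fell by 0.61 ± 0.11 in log2 units (SE, n = 5 each, limma adjusted p = 0.0296). It passed in 3 of the 10 fits with 1 animal left out, those without control 1, HMB 1 or HMB 3, with adjusted p up to 0.076 in the others, and the difference stayed between -0.69 and -0.55. Those 3 fits called 1014, 353 and 157 of all 14217 genes, and the others called 0 to 15. The other catalytic subunit, Prkaa1, was at -0.14 ± 0.07 (limma adjusted p = 0.24).

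The next 4 genes of that list by p did not pass. Acad11, an acyl-CoA dehydrogenase of longer chains, was at 0.26 ± 0.07 (SE, n = 5 each, limma adjusted p = 0.0643), from 9.90 to 10.05 in controls and 10.11 to 10.31 in HMB. Decr2, the peroxisomal counterpart of Decr1, was at 0.28 ± 0.09 (limma adjusted p = 0.0964), and its groups did not overlap either, with 9.83 to 10.27 in controls and 10.28 to 10.48 in HMB. Mmut, the methylmalonyl-CoA mutase that handles propionyl units, was at 0.28 (limma adjusted p = 0.0852), and Acsl3, an acyl-CoA synthetase of lipid droplets, at -0.30 (limma adjusted p = 0.0869). Of the receptor itself, Ppara was at 4.61 ± 0.44 (SD, n = 5) in controls and 4.75 in HMB, a difference of 0.14 ± 0.22 (SE, limma adjusted p = 0.716). This signal was near the median of the arrays (4.33 to 4.41), so little can be read from it. Slc25a20, the carnitine-acylcarnitine carrier between Cpt1a and Cpt2, was at 0.08 ± 0.08. Eci2, another enoyl-CoA isomerase, did not rise with Eci1. Its difference was -0.06 ± 0.09 (SE, limma adjusted p = 0.702), and 3 HMB rats lay below all controls.

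Array measures also moved with the groups. Over each array, the SD of log2 values was 2.43 to 2.50 in controls and 2.38 to 2.43 in HMB, with all HMB arrays lower (exact permutation test, two-sided, p = 0.00794, which is the smallest possible here, adjusted p = 0.0238 over 3 array measures). The poly-A control signal minus the hybridisation control signal was -2.19 to -1.90 in controls and -1.96 to -1.47 in HMB (exact permutation test, two-sided, p = 0.0238, adjusted p = 0.0357). With that signal as a covariate Eci1 was at 0.63 ± 0.14 (SE, limma adjusted p = 0.181) and Decr1 at 0.38 ± 0.11 (limma adjusted p = 0.23). That fit called 0 of all genes. The 3' minus 5' signal of GAPDH was 1.31 and 1.38 in HMB 1 and 2, below all controls, and 1.90 to 2.09 in HMB 3 to 5, above them (exact permutation test, two-sided, p = 0.516, adjusted p = 0.516). Without HMB 3 to 5 Eci1 was at 0.69 (limma adjusted p = 0.221) and Decr1 at 0.38 (limma adjusted p = 0.315), and without HMB 1 and 2 they were at 0.71 (limma adjusted p = 0.0311) and 0.37 (limma adjusted p = 0.0437). Of all genes, 0 were called without HMB 3 to 5 and 704 without HMB 1 and 2. Markers of hepatocytes averaged 12.39 to 12.55 in controls and 12.30 to 12.49 in HMB, with Alb at 14.61 and 14.57. Their log2 differences ran from -0.25 in Apoa1 (limma adjusted p = 0.147) to 0.06 in Cps1. Markers of Kupffer cells averaged 6.81 to 8.76 in controls and 7.60 to 8.27 in HMB. Those of sinusoidal endothelium averaged 7.23 to 8.57 in controls and 7.39 to 8.11 in HMB. Of the 33 measured markers of 8 cell types, 0 were called.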

How the data were processed

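Liver RNA of 10 rats, 5 control and 5 HMB by title, was measured on rat genome expression arrays. The authors deposited log2 signals of 31099 probe sets, made with RMA (version not stated) per the submitters' processing notes. RMA adjusts background and is meant to even out arrays, but the SD of log2 values still differed between the groups in the deposited signals. No 2 arrays were identical in 45 pairs. After 57 control probe sets were left out, 31042 remained, of which 20826 named 1 gene through the platform annotation, giving 14217 genes after symbols were updated by gene identifier. Where a gene had several, that of highest mean was used. No detection calls were used. The number of arrays limits the precision.

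Tests used limma 3.58.1 in R 4.3.3 (lmFit and eBayes, 8 residual degrees of freedom, prior 4.04), with Benjamini-Hochberg adjustment over all genes. Intervals of 95% come from the same fit. The step was tested on simulated data. Replicate numbers follow accession order, and the labels used here do not say which animals shared a cage or litter. Members and lists were chosen with earlier results of these data known. By rule, every animal's value was given for called members and, per step, those of smallest p and largest difference, and pathway genes were named if called or among the next 4 by p. Acaa2, Hadha, Hadhb, Acadsb, Angptl4, Prkaa1, Ppara, Slc25a20 and Eci2 were added after their values were seen. Alternatives were other normalizations, a filter of the lowest 25%, other priors and weights, other probe set choices, HMB 1 as a control, the poly-A covariate, an adjusted p of 0.1 and each animal left out. Fits without HMB 1 and 2 or HMB 3 to 5 were added after the data were seen. Figures used matplotlib 3.10.9 in Python 3.11.15.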

Additional observations from a re-analysis of the deposited data

Results flagged for a closer look

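Single animals stood apart from the other 4 of their group in 5 of 80 groups examined (37 genes and 3 array measures in both groups), where chance alone gives about 1 in 20. HMB 3 was apart for Mlycd, at 8.79 against 9.09 to 9.15 in the other HMB rats, and for Bdh1, at 9.89 against 10.19 to 10.31. Control 2 was apart for both subunits of the trifunctional protein, at 10.03 for Hadha against 9.82 to 9.87 and at 10.51 for Hadhb against 10.16 to 10.19. Control 5 was apart for Hsdl2, at 8.95 against 9.5 to 9.67.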

How the results depend on the processing

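The number of members called higher in HMB, 2 as reported, was 0 with HMB 1 counted as a control, 0 with the poly-A covariate, 0 without HMB animals 3 to 5, 1 with arrays at the same median and 4 at an adjusted p of 0.1, where Acaa2 and Vnn1 joined. It ran from 0 to 3 with each animal left out in turn, and was 0 without control 2, 3 or 5 or HMB 2, 4 or 5. Of all 14217 genes, 0 were called without control 2, 3 or 5 or HMB 2, and 1 without HMB 4 or 5. The fits with the poly-A covariate and without HMB animals 3 to 5 also called 0 of all genes. With HMB 1 as a control, 0.0774% of all genes were called higher. That share was 0.605% with arrays at the same median and 4.14% at an adjusted p of 0.1. In the fits that called 0 members, between 5 and 11 had an unadjusted p under 0.05. As reported, such a p was found for 24.32% of the members and 24.9% of all genes. The share of all genes in the other fits was not counted. The number called lower, 0 as reported, was 1 without HMB animals 1 and 2, namely Acsl5 at -0.40 (limma adjusted p = 0.0466), and 0 in every fit with 1 animal left out. Acsl5 was at 0.05 (limma adjusted p = 0.889) without HMB animals 3 to 5 and at -0.01 (limma adjusted p = 0.975) with the poly-A covariate. The fit without HMB animals 1 and 2 called 704 of all genes. The median log2 difference of the members, 0.07 as reported, was 0.13 with the poly-A covariate and 0.05 to 0.10 with 1 animal left out. Setting arrays to the same median moved the median of all genes to -0.06 and that of the members to 0.03. Pathway genes outside the members called higher, 0 as reported, numbered 1 (Acad11) after cyclic loess, with the trended robust prior and with array weights, and 0 to 2 with 1 animal left out. Those called lower, 1 as reported, numbered 0 with the poly-A covariate, 0 without HMB animals 3 to 5, and 0 to 2 with 1 animal left out. At an adjusted p of 0.1, 3 of these pathway genes were called higher and 3 lower, beside 1294 of all genes in either direction. Of 814 values of single members under 22 settings, 66 changed sign in 18 members, 0 of them called. Decr1 was at 0.33 (limma adjusted p = 0.0533) with arrays at the same median. Of all genes, 244 were called as reported, 82 after cyclic loess and 62 after quantile normalization. The limma adjusted p of Decr1 was 0.0488 and 0.0475 in those 2 fits, and that of Eci1 was 0.0361 and 0.0379. No paired analysis was possible because the replicate numbers follow accession order and pair no animals.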
